A study of Gasterosteus aculeatus with 36 samples.

Results

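Female threespine stickleback larvae were compared between 8 days post hatching (dph) and 0 dph, the day of hatching. These were the 6 libraries that the labels give as female at those 2 ages, 3 fish at each age, out of 36 libraries in the series. The series holds whole embryos and larvae of both sexes, and the 3 females at 4 dph and the 6 males at 8 and 0 dph served for comparison. All fish were lab-reared, unmanipulated progeny of wild-caught marine sticklebacks from Port Gardner Bay (Washington) and Akkeshi (Japan). Which of these origins each larva had, and whether fish of 1 age came from separate clutches, is not given in the sources used here. If the fish of 1 age shared a clutch, differences between clutches would enter the difference between the ages. They would then be missing from the spread between fish, and clutch and age could not be told apart. The p-values measure only the spread between fish within groups, pooled over all 36 libraries of the series. Each library held polyadenylated RNA from 1 whole larva, so RNA of the small gonad was mixed with that of the entire body.

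A stickleback hatches with a yolk supply and with primordial germ cells already in the region of the future gonad. Over the following days the yolk is used up, the gut and pancreas take over nutrition, and the skeleton and axial muscle grow. In many teleosts, germ cells of genetic females multiply and enter meiosis earlier than those of males, beside somatic cells that express *gsdf* (gonadal soma derived factor, a TGF-beta family member) and receptors of the anti-Müllerian hormone pathway. Body growth in fish, as in mammals, is driven by pituitary growth hormone, which acts through receptors in liver and other tissues to raise insulin-like growth factor 1. The larvae were fed brine shrimp after hatching, so age and feeding cannot be told apart in the comparison of 8 dph with 0 dph.

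Counted reads per library ranged from 13853605 to 28811311 in 8 dph females and from 24699850 to 32908285 in 0 dph females. Levels are given per fish as CPM (counts scaled to a common library size, with TMM factors), in the order of the replicate numbers. CPM compares 1 gene between fish and not different genes with each other, because no gene length enters it. Each value is relative to the other RNA of the whole larva, so amounts of RNA per larva or per tissue were not measured. The male-specific *amhy* (LOC120812167, the Y copy of *amh*, which encodes anti-Müllerian hormone) had 0, 0 and 0 reads in 8 dph females and 0, 1 and 4 reads in 0 dph females, against 11 to 38 reads in the males of the same ages. The third 0 dph female also held 27 CPM of LOC120812344, against 1.22 and 0.424 CPM in the other 0 dph females and 447 to 1105 CPM in the 0 and 8 dph males (a gene examined after its values were seen). Whether a low share of male reads entered that library was not tested. The first 0 dph female stood apart in some tissues: summed over 55 photoreceptor genes it had 1504 CPM, against 2285 and 2508 CPM in the other 0 dph females. The first 0 dph male stood apart in the same way, at 1410 CPM against 2628 and 2500 CPM in the other 0 dph males. All libraries were kept, and the counts of genes called between 8 and 0 dph in females, over the table and in each list, were repeated without each of the 6 fish.

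With TMM scaling, nearly as many genes were higher as lower after 8 days. Of 22168 genes tested with edgeR's quasi-likelihood test, 10158 differed between 8 dph and 0 dph females at an adjusted p under 0.05 (45.8%), with 5106 higher (23%) and 5052 lower (22.8%). That even split depended on scaling: the share of calls that were higher was 50.3% with TMM, 57.9% with RLE size factors and 58.1% with DESeq2. At a change of at least 2-fold the balance with TMM tilted upward, with 2493 genes higher (11.2%) and 1275 lower (5.75%). Correlations of log CPM were 0.979 to 0.981 within 8 dph females and 0.970 to 0.984 within 0 dph females, against 0.901 to 0.906 between the ages. Leaving out single fish left 8447 to 9620 genes called. Where the ages are said below not to overlap, this only describes the genes named. The share of all tested genes without overlap was not counted.

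Changes were ranked among called genes with a symbol, at least 5 CPM in the higher group and no overlap of the ages. Among these, the largest rises were in digestive enzymes and mineralized tissue genes. The largest falls were in hatching enzymes, followed by *afp4* and *cmn*. *ela2l*, a pancreatic elastase, had 1379, 1220 and 1611 CPM in 8 dph females, against 1.28, 1.23 and 0.674 CPM in 0 dph females (log2 fold change 10.36 ± 0.57, adjusted p = 5.57e-15). The carboxypeptidase *cpb1* had 583, 392 and 669 CPM in 8 dph females, against 0.396, 0.771 and 0.505 CPM in 0 dph females (log2 fold change 9.96 ± 0.43, adjusted p = 4.40e-17). Its relatives *cpa4* and *cpa5*, the elastase *ela2*, the amylase *amy2a* and the pancreatic phospholipase *pla2g1b* were also among the 12 largest rises, with log2 fold changes of 9.88, 8.04, 9.35, 8.15 and 8.33. In each of these 7 genes the lowest 8 dph female stood far above the highest 0 dph female. The intestinal fatty acid binding protein *fabp2* had 171, 151 and 145 CPM in 8 dph females, against 0.244, 0.385 and 0.842 CPM in 0 dph females (log2 fold change 8.3 ± 0.35, adjusted p = 3.74e-17). Bone entered the same group through *bglapl*, an osteocalcin-like gene of bone matrix, with 77.3, 82.1 and 103 CPM in 8 dph females, against 0.213, 0.0385 and 0.0337 CPM in 0 dph females (log2 fold change 9.68 ± 0.45, adjusted p = 1.50e-16). The gene *spp2*, which encodes a secreted phosphoprotein, was also among the 12, with a log2 fold change of 8.24. *scpp9*, a secretory calcium-binding phosphoprotein gene, had 627 reads over the 8 dph females and 1 read over the 0 dph females, a ratio of 955 after library scaling (exact 95% counting interval 171 to 37800). The uncharacterized *si:ch1073-126c3.2* completed the 12, with 1548 reads over the 8 dph females and 2 reads over the 0 dph females, a ratio of 1180 (exact 95% counting interval 326 to 9750).

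Hatching enzymes led the falls. *galce*, the low choriolytic enzyme that digests the egg envelope, had 1.57, 2.31 and 0.933 CPM in 8 dph females, against 851, 578 and 828 CPM in 0 dph females (log2 fold change -8.96 ± 0.34, adjusted p = 6.52e-18). *gahce1*, the high choriolytic enzyme acting beside it, had 1.46, 3.28 and 1.23 CPM in 8 dph females, against 735, 260.2 and 557 CPM in 0 dph females (log2 fold change -8.11 ± 0.4, adjusted p = 5.01e-16). Both were already near their 8 dph level in 4 dph females, at 2.89, 2.14 and 1.8 CPM for *galce* and 2.41, 2.52 and 1.89 CPM for *gahce1*. *afp4*, a type IV antifreeze protein gene, had 1.4, 3.13 and 0.709 CPM in 8 dph females, against 253, 127 and 117 CPM in 0 dph females (log2 fold change -6.7 ± 0.36, adjusted p = 3.80e-15), and *cmn*, which encodes the notochord protein calymmin in zebrafish, had 3.76, 2.91 and 1.38 CPM in 8 dph females, against 158, 80.5 and 67.8 CPM in 0 dph females (log2 fold change -5.3 ± 0.44, adjusted p = 5.23e-11). A pair of genes with known roles in yellow pigment cells of fish fell as well, *slc2a15b* (a sugar transporter) by 5.26 and *gch2* (pteridine synthesis) by 4.08 on the log2 scale. *pck1*, the gluconeogenic enzyme phosphoenolpyruvate carboxykinase, had 9.53, 14.9 and 6.27 CPM in 8 dph females, against 262, 219.9 and 172 CPM in 0 dph females (log2 fold change -4.44 ± 0.38, adjusted p = 1.19e-10), with 120.5, 78.1 and 62.8 CPM in 4 dph females. The remaining members of the 12 largest falls were the serine protease *tmprss9*, *wu:fc23c09*, *rep15*, *comtd1* and the interferon-responsive *samd9l*, with log2 fold changes of -4.61, -4.12, -3.82, -3.75 and -3.69. The 8 dph and 0 dph females did not overlap in any of these 24 genes, as the naming rule required.

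**Figure D1:**
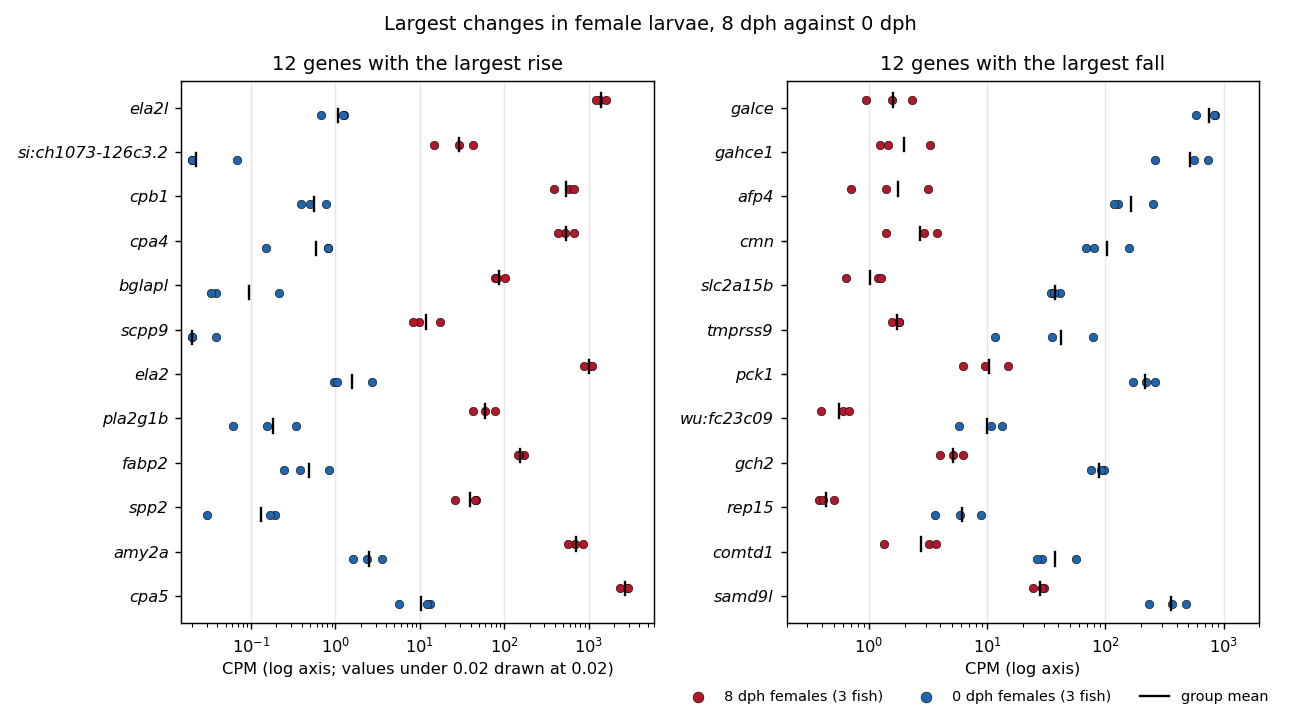
CPM per fish (log axis) of the 12 genes with the largest rise (left) and the 12 with the largest fall (right) among the ranked genes with a symbol. The 8 dph females are in red above 0 dph females in blue, with group means as black ticks. The elastase *ela2l* had 1379, 1220 and 1611 CPM in 8 dph females and 1.28, 1.23 and 0.674 CPM in 0 dph females, and the hatching enzyme *galce* had 1.57, 2.31 and 0.933 CPM in 8 dph females and 851, 578 and 828 CPM in 0 dph females.

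In the germ cell list 3 genes rose, at low levels throughout. *ddx4* (vasa), the RNA helicase that marks germ cells in vertebrates, had 1.91, 2.01 and 1.79 CPM in 8 dph females, against 0.976, 0.501 and 0.505 CPM in 0 dph females (log2 fold change 1.51 ± 0.43, adjusted p = 0.00534). *tdrd1*, a Tudor protein that binds Piwi proteins, had 0.673, 0.448 and 0.634 CPM in 8 dph females, against 0.274, 0.193 and 0.135 CPM in 0 dph females (log2 fold change 1.53 ± 0.47, adjusted p = 0.00862), on 6 to 17 reads in 8 dph females and 4 to 9 reads in 0 dph females. *piwil1*, a Piwi protein that silences transposons in the germ line with small RNAs, had 2.69, 1.72 and 1.98 CPM in 8 dph females, against 1.34, 0.655 and 0.539 CPM in 0 dph females (log2 fold change 1.32 ± 0.4, adjusted p = 0.00795). In each of these 3 genes every 8 dph female was above every 0 dph female, a separation that was not counted over all genes. Without the third 0 dph female the call of *piwil1* was lost (adjusted p = 0.0546). None of the 3 passed the test between 4 and 0 dph, and all 3 passed it between 8 and 4 dph. *ddx4* had 0.662, 0.188 and 0.396 CPM in 4 dph females, with a log2 fold change of -0.74 ± 0.48, adjusted p = 0.25 between 4 and 0 dph and of 2.24 ± 0.47, adjusted p = 0.00347 between 8 and 4 dph. *piwil1* had 0.723, 0.753 and 0.616 CPM in 4 dph females, with -0.29 ± 0.43, adjusted p = 0.64 and 1.61 ± 0.42, adjusted p = 0.0203, and *tdrd1* had 0.12, 0.151 and 0.22 CPM, with -0.28 ± 0.54, adjusted p = 0.731 and 1.8 ± 0.5, adjusted p = 0.0316. In bulk larvae, a change in the number of germ cells and a change in RNA per germ cell cannot be told apart.

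Most of the germ cell list was called in neither direction. Of 37 listed genes 28 were in the table and 25 were tested, of which 3 were called higher, 5 lower and 17 in neither direction, or 32% called against 45.8% of all genes, with a median log2 fold change of -0.09 against 0.00 over all genes. The falling members were *tdrd3*, *tdrd7b*, *tdrd12*, *mov10l1* and *h1m*. *tdrd3*, a Tudor protein of broad expression, had 20.69, 23.7 and 23.31 CPM in 8 dph females, against 31.4, 29.9 and 34.4 CPM in 0 dph females (log2 fold change -0.5 ± 0.11, adjusted p = 0.000568). *tdrd7b*, known from zebrafish germ granules, had 9.92, 11 and 11.1 CPM in 8 dph females, against 13.2, 15.3 and 13.9 CPM in 0 dph females (log2 fold change -0.41 ± 0.14, adjusted p = 0.0198), but was no longer called without the first 8 dph female (adjusted p = 0.0775) or the second 0 dph female (adjusted p = 0.0808), or with RLE size factors (adjusted p = 0.0512). *tdrd12*, which acts in piRNA production (log2 fold change -2.44, adjusted p = 0.0235), lost its call without the second (adjusted p = 0.0837) or the third 8 dph female (adjusted p = 0.114) or the first 0 dph female (adjusted p = 0.145). *mov10l1*, a helicase that feeds transcripts into piRNA production (log2 fold change -1.02, adjusted p = 0.0389), lost it without the second (adjusted p = 0.146) or the third 8 dph female (adjusted p = 0.075) or the third 0 dph female (adjusted p = 0.283), with RLE size factors (adjusted p = 0.0552) and with only the groups compared in the fit (adjusted p = 0.0668). *h1m*, a maternal linker histone gene used as a primordial germ cell marker in zebrafish, had 0 reads over the 8 dph females and 11 reads over the 0 dph females, at least 2.41-fold lower at a floor of 3 counts over the group, and was not called without the third 8 dph female (adjusted p = 0.0569). *dazl*, an RNA-binding protein of germ cells (log2 fold change 0.85, adjusted p = 0.314), and *nanos3*, a translational repressor that keeps primordial germ cells alive (log2 fold change -0.53, adjusted p = 0.567), did not pass the test. *dnd1*, another germ cell survival factor, was removed by the filter with 0 to 2 reads per female.

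Meiosis genes that passed the test went in both directions, and most of the list did not pass it. *smc1b*, the meiotic cohesin subunit, had 0.841, 0.746 and 0.933 CPM in 8 dph females, against 0.152, 0.0385 and 0.101 CPM in 0 dph females (log2 fold change 3.01 ± 0.69, adjusted p = 0.000741). *dmc1*, the recombinase that acts only in meiosis, had 1.12, 0.97 and 0.895 CPM in 8 dph females, against 0.183, 0 and 0.236 CPM in 0 dph females (log2 fold change 2.74 ± 0.66, adjusted p = 0.00116). *sycp1*, the transverse filament of the synaptonemal complex, had 0.449, 0.597 and 0.709 CPM in 8 dph females, against 0.152, 0.116 and 0.0674 CPM in 0 dph females (log2 fold change 2.34 ± 0.68, adjusted p = 0.00591). The ages did not overlap in any of these 3 genes, and their levels in 4 dph females were 0.422, 0.226 and 0.264 CPM for *smc1b*, 0.0602, 0.188 and 0.132 CPM for *dmc1* and 0.361, 0.151 and 0.176 CPM for *sycp1*. The 0 dph levels of these 3 genes rest on few reads, with *dmc1* at 0 CPM in the second 0 dph female. *spata22*, a partner in meiotic recombination, was below the filter with 9, 14 and 7 reads in 8 dph females and 1, 0 and 2 reads in 0 dph females. In the other direction, *sycp3*, a lateral element of the synaptonemal complex, had 1.96, 2.01 and 2.42 CPM in 8 dph females, against 3.96, 5.51 and 4.65 CPM in 0 dph females (log2 fold change -1.13 ± 0.27, adjusted p = 0.00118). *terb1*, which ties telomeres to the nuclear envelope in meiosis, had 0.168, 0.373 and 0.485 CPM in 8 dph females, against 1.13, 1.23 and 1.04 CPM in 0 dph females (log2 fold change -1.68 ± 0.42, adjusted p = 0.00175). *sycp2l*, a relative of a lateral element gene, fell (log2 fold change -2.07, adjusted p = 0.0156), a call lost without the second 8 dph female (adjusted p = 0.0713) or the first 0 dph female (adjusted p = 0.0672). In all, 25 of 36 listed genes were tested, with 3 called higher, 3 lower and 19 in neither direction (24% called, against 45.8% of all genes) and a median log2 fold change of -0.14.

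Oocyte genes were mostly lower or not called. Of 33 listed genes 16 were tested, with 1 called higher, 5 lower and 10 in neither direction (37.5% called, against 45.8% of all genes) and a median log2 fold change of -0.38. *wee2*, the kinase that holds oocytes in meiotic arrest in mammals, had 1.85, 1.64 and 1.94 CPM in 8 dph females, against 4.33, 3.89 and 4.21 CPM in 0 dph females (log2 fold change -1.18 ± 0.27, adjusted p = 0.000712). *ccnb1*, cyclin B, which all dividing cells use, had 16, 15.3 and 19.7 CPM in 8 dph females, against 23.33, 29.6 and 31.8 CPM in 0 dph females (log2 fold change -0.72 ± 0.18, adjusted p = 0.00129). *gdf9*, a growth factor secreted by oocytes, was at most 0.280 CPM in 8 dph females and at most 0.762 CPM in 0 dph females, and the ages overlapped (log2 fold change -1.73, adjusted p = 0.0286). Its call was lost without the second (adjusted p = 0.117) or the third 8 dph female (adjusted p = 0.108) or the first 0 dph female (adjusted p = 0.197), and with DESeq2 (adjusted p = 0.0633). The other 3 calls were also lost when single fish were left out. *alox12*, the only riser (log2 fold change 0.71, adjusted p = 0.00463), lost its call without the second 8 dph female (adjusted p = 0.0655) or the third 0 dph female (adjusted p = 0.0543), and with only the groups compared (adjusted p = 0.0723). *pou5f3*, a pluripotency factor (log2 fold change -1.55, adjusted p = 0.012), lost it without the third 8 dph female (adjusted p = 0.0749) or the second 0 dph female (adjusted p = 0.0562). *org*, an oogenesis-related gene (log2 fold change -1.27, adjusted p = 0.0391), lost it without the first (adjusted p = 0.117) or the third 8 dph female (adjusted p = 0.106) or the second (adjusted p = 0.112) or the third 0 dph female (adjusted p = 0.0636), with DESeq2 (adjusted p = 0.0561) and with RLE size factors (adjusted p = 0.0509).

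Gonadal somatic genes gave the largest rises of the reproductive lists. *gsdf*, expressed in somatic cells next to germ cells in both ovary and testis of fish, had 6.78, 6.94 and 4.44 CPM in 8 dph females, against 0.183, 0.308 and 0.0674 CPM in 0 dph females (log2 fold change 5.01 ± 0.58, adjusted p = 4.44e-08). Its level was intermediate in 4 dph females, at 2.11, 0.602 and 1.14 CPM. *amhrII* (LOC120835457), the receptor of anti-Müllerian hormone, had 1.46, 1.27 and 1.04 CPM in 8 dph females, against 0.061, 0.231 and 0.337 CPM in 0 dph females (log2 fold change 2.57 ± 0.66, adjusted p = 0.00205). The groups were fully separated in both genes. The ligand *amh* itself did not pass the test (log2 fold change -0.83, adjusted p = 0.119). *inhbaa*, an activin subunit, rose (log2 fold change 1.59 ± 0.36), as did the receptors of sex steroids, with the estrogen receptors *esr2a* (log2 fold change 1.2 ± 0.22) and *esr2b* (log2 fold change 1.37 ± 0.37) and the androgen receptor *ar* (log2 fold change 1.24 ± 0.27). *dhh*, the hedgehog ligand of testis and nerve sheaths (log2 fold change 0.94 ± 0.28), and *wnt4* (log2 fold change 0.63 ± 0.14), whose mouse counterpart acts in ovary formation, were also higher. Many of these genes are used outside the gonad too. *nr5a5*, a fish nuclear receptor of the NR5A group, had 20.4, 24.6 and 19.8 CPM in 8 dph females, against 0.762, 0.963 and 0.808 CPM in 0 dph females (log2 fold change 4.67 ± 0.32, adjusted p = 2.73e-12) and was already at 18.7, 21.7 and 21.5 CPM in 4 dph females. *nr0b2a*, the small heterodimer partner known for bile acid feedback in mammalian liver, had 20.3, 9.4 and 7.01 CPM in 8 dph females, against 0.152, 0.424 and 0.168 CPM in 0 dph females (log2 fold change 5.63 ± 0.54, adjusted p = 1.26e-09), and *nr5a2*, a nuclear receptor of liver, gut and ovary, rose (log2 fold change 0.76 ± 0.15).

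The falling genes of this list were developmental regulators with roles in several organs. *gata4*, a transcription factor of heart, gut and gonad, had 4.49, 4.25 and 9.88 CPM in 8 dph females, against 24, 31.2 and 26.5 CPM in 0 dph females (log2 fold change -2.09 ± 0.2, adjusted p = 2.04e-09). *wt1b*, needed in kidney podocytes and in the gonad primordium, had 4.99, 7.09 and 5.26 CPM in 8 dph females, against 12.7, 10.6 and 10.6 CPM in 0 dph females (log2 fold change -0.97 ± 0.21, adjusted p = 0.000358). *sox3* (log2 fold change -0.73 ± 0.17), *wnt4b* (log2 fold change -0.76 ± 0.19), the activin antagonist *fsta* (log2 fold change -0.66 ± 0.16) and the homeobox gene *emx2* (log2 fold change -0.46 ± 0.14) fell by less than 2-fold. *foxl2a*, the ovarian forkhead factor that also acts in pituitary and eyelid development in mammals, had 6.39, 5.07 and 4.66 CPM in 8 dph females, against 7.01, 7.98 and 7.78 CPM in 0 dph females (log2 fold change -0.5 ± 0.17, adjusted p = 0.0157), but lost its call without the second (adjusted p = 0.0538) or the third 8 dph female (adjusted p = 0.0958). Other calls of the list were also lost when single fish were left out. *foxl2l*, a forkhead factor of female germ cells in medaka, rose (log2 fold change 1.01, adjusted p = 0.0152), a call lost without the third 8 dph female (adjusted p = 0.0973). *kita* (log2 fold change 0.86, adjusted p = 0.0176), a receptor tyrosine kinase of pigment and germ cells, lost its call without the first 8 dph female (adjusted p = 0.0709) or the third 0 dph female (adjusted p = 0.0839). Its ligand gene *kitlga* (log2 fold change 0.65, adjusted p = 0.00913) lost it without the second 8 dph female (adjusted p = 0.0642) or the third 0 dph female (adjusted p = 0.0694), and with only the groups compared (adjusted p = 0.0616). Of 65 listed genes 53 were tested, with 18 higher, 9 lower and 26 in neither direction (50.9% called, close to the 45.8% of all genes) and a median log2 fold change of 0.06. The aromatase gene *cyp19a1a* (LOC120811580), which makes estrogen in the ovary, was below the filter with 2, 4 and 6 reads in 8 dph females and 3, 3 and 9 reads in 0 dph females, and *dmrt1*, a male differentiation factor, with 5, 6 and 7 reads in 8 dph females and 7, 0 and 1 reads in 0 dph females. Neither was tested.

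**Figure D2:**
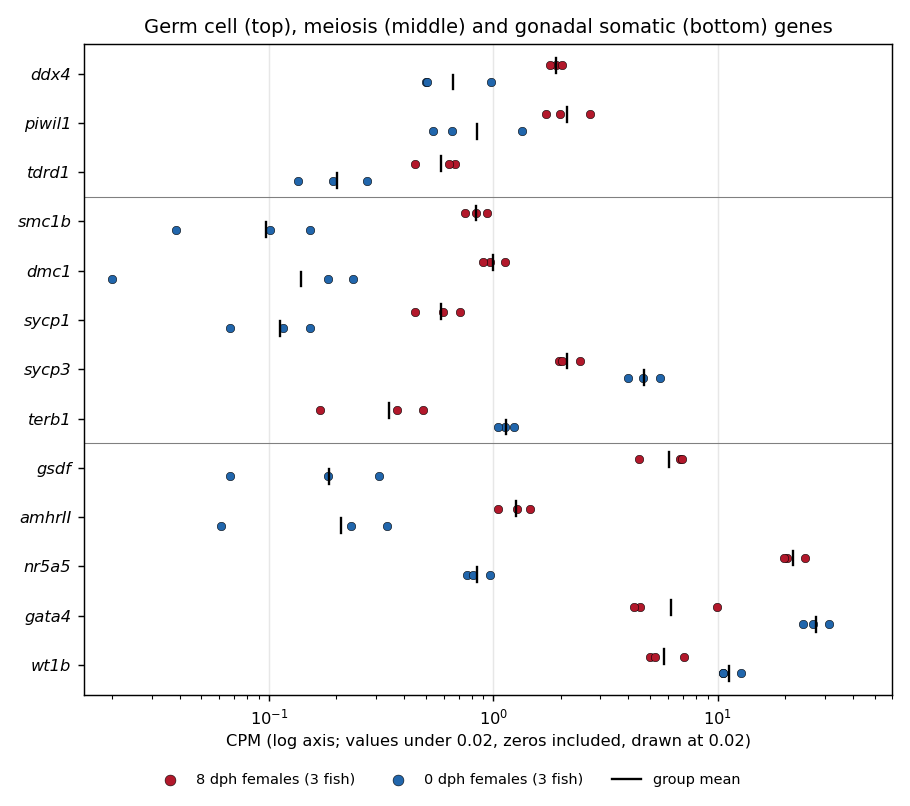
CPM per fish (log axis) of 3 germ cell genes, 5 meiosis genes and 5 gonadal somatic genes, with 8 dph females in red above 0 dph females in blue and group means as black ticks. *ddx4*, *dmc1*, *gsdf* and *amhrII* were higher in every 8 dph female than in any 0 dph female, and *sycp3*, *terb1*, *gata4* and *wt1b* were lower in every 8 dph female.

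Called genes of the steroid list went in both directions, and the largest change was in bile acid synthesis. *cyp7a1*, the rate-limiting enzyme that turns cholesterol into bile acids, had 26.5, 37.5 and 52.9 CPM in 8 dph females, against 1.4, 3.78 and 5.12 CPM in 0 dph females (log2 fold change 3.52 ± 0.39, adjusted p = 6.90e-08). *dhcr7*, the last step of cholesterol synthesis, had 101, 82.2 and 126 CPM in 8 dph females, against 34.6, 41.5 and 41.9 CPM in 0 dph females (log2 fold change 1.39 ± 0.24, adjusted p = 2.28e-05). *hsd17b3*, which makes testosterone in the mammalian testis, rose (log2 fold change 1.59 ± 0.39). *hsd17b1*, which makes estradiol in mammals, was at most 0.671 CPM in 8 dph females and at most 0.183 CPM in 0 dph females (log2 fold change 2.33, adjusted p = 0.0121), and its call was lost without the third 8 dph female (adjusted p = 0.0907) or the third 0 dph female (adjusted p = 0.0684). *star*, which carries cholesterol into mitochondria as the first step of steroid synthesis, had 5.27, 5.9 and 4.74 CPM in 8 dph females, against 3.2, 2.43 and 1.95 CPM in 0 dph females (log2 fold change 1.06 ± 0.44, adjusted p = 0.0481). Leaving out the first (adjusted p = 0.0849), second (adjusted p = 0.113) or the third 8 dph female (adjusted p = 0.0659), or the second (adjusted p = 0.105) or the third 0 dph female (adjusted p = 0.156), ended that call, as did a fit with no filter beyond 1 read (adjusted p = 0.0588). The 5α-reductase gene *srd5a1* (log2 fold change -0.63 ± 0.17), the cholesterol transporter *stard3* (log2 fold change -0.62 ± 0.17), *hsd17b12a* (log2 fold change -0.94 ± 0.14), which also acts in fatty acid elongation, and the mitochondrial *hsd17b10* (log2 fold change -0.46 ± 0.14) fell. Of 46 listed genes 29 were tested, with 8 higher, 5 lower and 16 in neither direction (44.8% called, against 45.8% of all genes) and a median log2 fold change of -0.01.

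In the growth hormone and insulin-like growth factor axis, the hormone gene *gh1*, a receptor gene, *ghrb*, and the effector gene *igf1* rose, while 21 of the 42 tested genes of the list were called in neither direction. *gh1*, growth hormone, had 6.95, 8.28 and 5 CPM in 8 dph females, against 0.183, 1.66 and 1.15 CPM in 0 dph females (log2 fold change 2.77 ± 0.51, adjusted p = 0.000168). Its receptor gene *ghrb* had 45.8, 50.4 and 37.6 CPM in 8 dph females, against 7.17, 10.8 and 9.13 CPM in 0 dph females (log2 fold change 2.3 ± 0.18, adjusted p = 2.60e-11). *igf1*, the growth factor made in response, had 15.9, 13.4 and 15.3 CPM in 8 dph females, against 5.92, 6.05 and 5.89 CPM in 0 dph females (log2 fold change 1.32 ± 0.2, adjusted p = 3.12e-06), and *igfals*, which encodes the subunit that stabilizes IGF in plasma, had 57.6, 46 and 51.5 CPM in 8 dph females, against 13.2, 10.7 and 23.07 CPM in 0 dph females (log2 fold change 1.72 ± 0.31, adjusted p = 3.69e-05). No 8 dph female fell into the 0 dph range in any of these 4 genes. Among receptors and relays, *igf1rb* (log2 fold change 0.72 ± 0.19), the insulin receptor gene *insra* (log2 fold change 0.68 ± 0.15) and the insulin receptor substrate *irs2b* (log2 fold change 0.77 ± 0.14) rose by less than 2-fold. So did the feedback inhibitor *socs3a* (log2 fold change 0.75 ± 0.2), while its paralog *socs3b* (log2 fold change 1.12 ± 0.2) rose by more. The binding protein *igfbp2b* (log2 fold change 1.16 ± 0.29) and the stanniocalcin genes *stc1l* (log2 fold change 2.19 ± 0.44) and *stc2a* (log2 fold change 1.28 ± 0.21), known for control of calcium and, for STC2, of IGF release, were higher too.

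Other members of the axis fell or did not pass the test. The second receptor gene, *ghra*, had 33.5, 37.8 and 44.8 CPM in 8 dph females, against 59.7, 47.4 and 47.6 CPM in 0 dph females (log2 fold change -0.41 ± 0.14, adjusted p = 0.016), opposite in sign to *ghrb*. Its call was lost without the first 8 dph female (adjusted p = 0.0981) or the first 0 dph female (adjusted p = 0.113), and with DESeq2 (adjusted p = 0.05). *igf2bp3*, an RNA-binding protein typical of embryos, had 63.9, 81.3 and 77.4 CPM in 8 dph females, against 136, 104 and 124 CPM in 0 dph females (log2 fold change -0.71 ± 0.13, adjusted p = 6.46e-05). *sstr2a*, a receptor for somatostatin, which restrains growth hormone release, had 10.3, 11.9 and 14 CPM in 8 dph females, against 33.5, 20.3 and 25.1 CPM in 0 dph females (log2 fold change -1.12 ± 0.24, adjusted p = 0.000406), and *igfbp7* fell (log2 fold change -0.9 ± 0.17). Insulin (*ins*) varied among 8 dph females, with 5.49, 21.6 and 33.3 CPM in 8 dph females, against 12.9, 13.3 and 10.04 CPM in 0 dph females (log2 fold change 0.74 ± 0.39, adjusted p = 0.117). Without the first 8 dph female, the lowest, insulin passed the test (log2 fold change 1.19, adjusted p = 0.00498). Of 65 listed genes 42 were tested, with 16 higher, 5 lower and 21 in neither direction (50% called, against 45.8% of all genes) and a median log2 fold change of 0.45.

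*gh1* and *igf1* had similar log2 fold changes from 0 to 4 dph and from 4 to 8 dph, and *ghrb* had a larger one from 4 to 8 dph. *gh1* had 1.69, 3.54 and 2.46 CPM in 4 dph females, with a log2 fold change of 1.4 ± 0.5, adjusted p = 0.0381 from 0 to 4 dph and of 1.37 ± 0.48, adjusted p = 0.104 from 4 to 8 dph. *ghrb* had 12.6, 15.2 and 17.106 CPM in 4 dph females, with 0.73 ± 0.18, adjusted p = 0.00217 from 0 to 4 dph and 1.57 ± 0.18, adjusted p = 2.08e-06 from 4 to 8 dph. *igf1* had 9.7, 9.86 and 9.01 CPM in 4 dph females, with 0.68 ± 0.2, adjusted p = 0.00863 from 0 to 4 dph and 0.64 ± 0.19, adjusted p = 0.0468 from 4 to 8 dph. These steps share the 4 dph fish, so they are given side by side only.

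**Figure D3:**
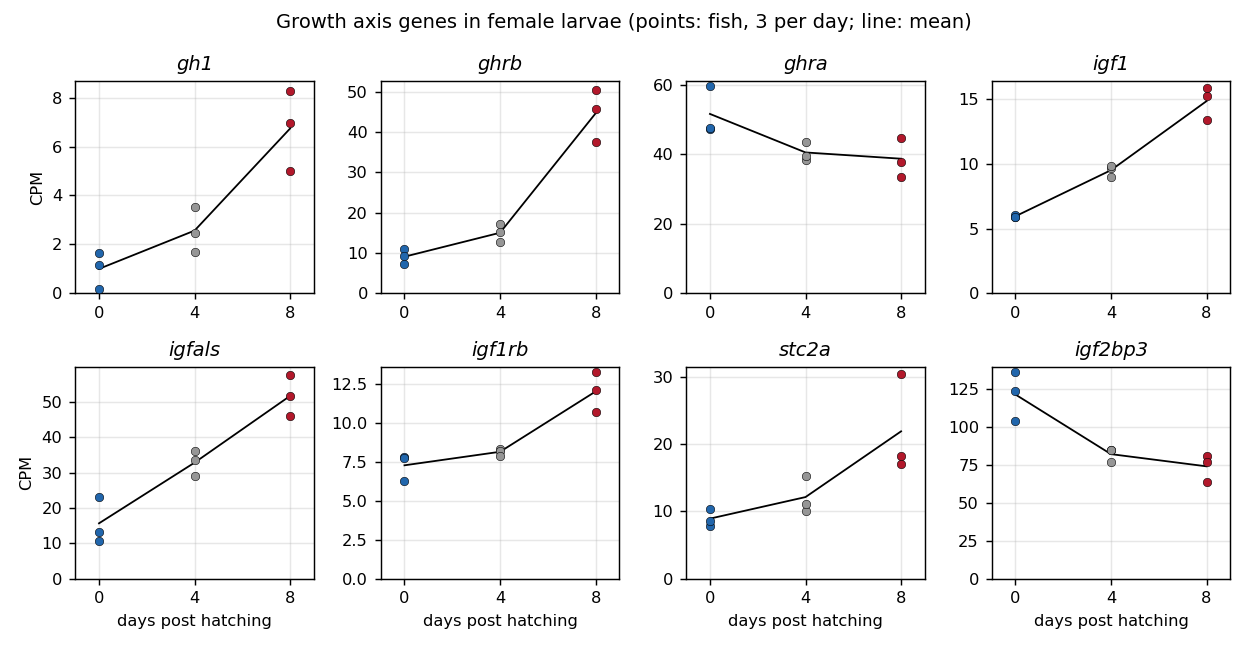
CPM per female (points) and mean (line) at 0, 4 and 8 dph for 8 growth axis genes, each on its own linear axis from 0. *gh1*, *ghrb*, *igf1*, *igfals*, *igf1rb* and *stc2a* were higher in every 8 dph female than in any 0 dph female, while *ghra* and *igf2bp3* were lower.

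Of the pituitary list, *gh1* rose beside the prohormone convertases *pcsk1* (log2 fold change 0.95 ± 0.2) and *pcsk2* (log2 fold change 1.03 ± 0.13), which cut hormone precursors in endocrine cells and neurons. *pcsk2* had 54.1, 58.7 and 48.6 CPM in 8 dph females, against 23.27, 28.9 and 26.8 CPM in 0 dph females (log2 fold change 1.03 ± 0.13, adjusted p = 2.20e-07). The hypothalamic releasing hormones *trh* (log2 fold change 1.24, adjusted p = 0.00685) and *crhb* (log2 fold change 1.16, adjusted p = 0.0108) were higher, with the call of *trh* lost without the first 0 dph female (adjusted p = 0.0513) and that of *crhb* without the second 8 dph female (adjusted p = 0.0566) or the first 0 dph female (adjusted p = 0.0645). The 3 genes of the list called lower were transcription factors of the developing gland. *lhx3* had 10.6, 9.25 and 8.17 CPM in 8 dph females, against 15.6, 14.8 and 16.1 CPM in 0 dph females (log2 fold change -0.74 ± 0.2, adjusted p = 0.00333). *neurod4*, which also acts in retina and brain, had 21.8, 27.5 and 19.8 CPM in 8 dph females, against 47.7, 47.7 and 55.7 CPM in 0 dph females (log2 fold change -1.14 ± 0.13, adjusted p = 4.66e-08). *hesx1*, an early pituitary and forebrain repressor, had 2 reads over the 8 dph females and 27 reads over the 0 dph females, a ratio of 0.113 (exact 95% counting interval 0.013 to 0.449). Of 30 listed genes 20 were tested, with 5 higher, 3 lower and 12 in neither direction (40% called, against 45.8% of all genes) and a median log2 fold change of 0.40. In the thyroid list 10 of 23 tested genes rose and 3 fell (56.5% called, against 45.8% of all genes). *duox*, an oxidase that supplies peroxide for thyroid hormone synthesis and also acts in gut, had 13, 8.06 and 7.05 CPM in 8 dph females, against 0.701, 0.578 and 0.303 CPM in 0 dph females (log2 fold change 4.13 ± 0.48, adjusted p = 6.18e-08), and *dio3a*, the deiodinase that inactivates thyroid hormone, had 5.21, 2.84 and 3.32 CPM in 8 dph females, against 12.5, 11.8 and 12.6 CPM in 0 dph females (log2 fold change -1.69 ± 0.22, adjusted p = 4.25e-07). The retinoid X receptor *rxraa*, a partner of thyroid hormone receptors, rose (log2 fold change 0.66 ± 0.13).

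Tested genes of the exocrine pancreas list rose almost without exception. Of 51 listed genes only 15 were in the table and tested. Of these 14 rose and none fell, against 23% and 22.8% of all genes, with a median log2 fold change of 7.68. Their summed level was 7779, 6452 and 8723 CPM in 8 dph females, against 72.3, 93.3 and 91.3 CPM in 0 dph females, and every 8 dph female exceeded every 0 dph female. *ela3l*, another elastase, had 439, 401 and 587 CPM in 8 dph females, against 1.07, 2.7 and 3.27 CPM in 0 dph females (log2 fold change 7.68 ± 0.39, adjusted p = 1.05e-15). In the intestine list 30 of 42 tested genes rose and 6 fell, with a median of 1.38, although the summed level overlapped, at 1932, 2291 and 2574 CPM in 8 dph females, against 2679, 1654 and 2206 CPM in 0 dph females. *slc15a1a*, the peptide transporter of enterocytes, had 24.1, 35.8 and 34 CPM in 8 dph females, against 2.62, 2.16 and 2.49 CPM in 0 dph females (log2 fold change 3.68 ± 0.28, adjusted p = 8.66e-12), and was higher still in 4 dph females, at 49.3, 65 and 81.6 CPM. *npc1l1*, which takes up cholesterol from the gut, rose (log2 fold change 3.38 ± 0.26), and *muc2.1*, a gel-forming mucin of goblet cells, had 15.8, 25.4 and 6.23 CPM in 8 dph females, against 0.061, 0.385 and 0.101 CPM in 0 dph females (log2 fold change 6.46 ± 0.73, adjusted p = 2.84e-07). Beside these rises, the hatching gland list (10 tested genes, without the hatching enzymes described above) had 1 gene higher, *cd9b*, a tetraspanin, (log2 fold change 1.52 ± 0.18), and none lower.

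Most liver plasma protein genes rose. Of 32 tested plasma protein genes 22 rose and 4 fell, with a median log2 fold change of 0.97. That was 81.2% called, against 45.8% of all genes (23% higher and 22.8% lower). *c9*, a terminal complement component, had 109.8, 129 and 114 CPM in 8 dph females, against 18.6, 18.6 and 28.1 CPM in 0 dph females (log2 fold change 2.43 ± 0.39, adjusted p = 8.52e-06), *fga*, a fibrinogen chain, rose (log2 fold change 1.56 ± 0.21), and *uox*, which degrades uric acid, rose (log2 fold change 1.91 ± 0.19). In contrast *rbp4*, the plasma carrier of retinol, had 177, 208 and 239 CPM in 8 dph females, against 736, 738 and 771 CPM in 0 dph females (log2 fold change -1.85 ± 0.17, adjusted p = 8.65e-10), and *hamp*, the iron hormone hepcidin, had 1.12, 1.79 and 1.57 CPM in 8 dph females, against 15.8, 4.32 and 6.7 CPM in 0 dph females (log2 fold change -2.59 ± 0.4, adjusted p = 5.30e-06). Of 66 tested lipid genes 30 rose, 10 fell and 26 were called in neither direction (60.6% called), with a median of 0.31. The summed level of the list was 8908, 7908 and 9915 CPM in 8 dph females, against 11120, 9584 and 11120 CPM in 0 dph females. *ldlra*, the LDL receptor, had 87, 74.7 and 82.4 CPM in 8 dph females, against 21.8, 15.2 and 14 CPM in 0 dph females (log2 fold change 2.26 ± 0.17, adjusted p = 4.60e-12). *pltp*, phospholipid transfer protein, rose (log2 fold change 1.78 ± 0.14), and *lipca*, hepatic lipase, rose (log2 fold change 3.64 ± 0.76) although its 8 dph level varied, at 0.729, 0.597 and 3.73 CPM.

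In the skeleton, bone genes rose and cartilage genes fell. Of 43 tested bone genes 26 rose and 1 fell, with a median log2 fold change of 0.88. That was 62.8% called, against 45.8% of all genes (23% higher and 22.8% lower). *spp1*, osteopontin, had 239, 188 and 267 CPM in 8 dph females, against 5, 6.16 and 5.93 CPM in 0 dph females (log2 fold change 5.34 ± 0.21, adjusted p = 1.41e-17), and the collagen *col10a1b*, made in bone of fish and in hypertrophic cartilage, had 219.6, 226 and 316 CPM in 8 dph females, against 28.2, 16.3 and 36 CPM in 0 dph females (log2 fold change 3.24 ± 0.23, adjusted p = 3.26e-12). Of 38 tested cartilage genes 4 rose and 22 fell (68.4% called), with a median of -0.68. *epyc*, epiphycan of growing cartilage, had 27, 32.4 and 26.1 CPM in 8 dph females, against 154, 151 and 126 CPM in 0 dph females (log2 fold change -2.33 ± 0.17, adjusted p = 4.09e-12), and the cartilage collagen *col9a3* had 81.9, 96.8 and 98.5 CPM in 8 dph females, against 433, 372 and 288 CPM in 0 dph females (log2 fold change -1.98 ± 0.17, adjusted p = 1.29e-10). The cartilage list summed to 2542, 2841 and 2958 CPM in 8 dph females, against 6504, 5051 and 3910 CPM in 0 dph females. The list's risers included *prg4b*, lubricin of joints (log2 fold change 5.8 ± 0.4), and *cnmd*, chondromodulin (log2 fold change 4.32 ± 0.58). Of 72 tested skeletal muscle genes 38 rose and 9 fell (65.3% called), with a median of 0.73. Their summed level was 77150, 96550 and 109700 CPM in 8 dph females, against 44600, 39900 and 45280 CPM in 0 dph females. *ampd1*, muscle AMP deaminase, had 436, 688 and 593 CPM in 8 dph females, against 4.61, 9.36 and 9.36 CPM in 0 dph females (log2 fold change 6.21 ± 0.43, adjusted p = 1.10e-12). *myoz1a*, a Z-disc protein of fast fibres (log2 fold change 4.07 ± 0.23), the calcium channel subunit *cacna1sb* (log2 fold change 2.75 ± 0.27) and the troponin *tnni1c* (log2 fold change 5.13 ± 0.61) rose as well.

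Lymphocyte genes mostly rose. Of 34 tested lymphocyte and thymus genes 25 rose and 3 fell (82.4% called, against 45.8% of all genes), with a median log2 fold change of 1.52. *rag1*, the recombinase of antigen receptor genes, had 14.3, 13.7 and 18.7 CPM in 8 dph females, against 2.23, 2.66 and 2.36 CPM in 0 dph females (log2 fold change 2.69 ± 0.32, adjusted p = 6.29e-08). *lck*, a T cell kinase, rose (log2 fold change 3.8 ± 0.39), as did *cd74a*, the invariant chain of antigen presentation (log2 fold change 3.87 ± 0.27). *cd8a*, a marker of cytotoxic T cells, had 56 reads over the 8 dph females and 0 reads over the 0 dph females, at least 28.4-fold higher at a floor of 3 counts over the group. Of 29 tested macrophage and granulocyte genes 17 rose and 3 fell (69% called), or 13 higher without the third 8 dph or the third 0 dph female, and the summed level overlapped, at 929, 823.8 and 1261 CPM in 8 dph females, against 847, 1023 and 1236 CPM in 0 dph females. The risers included *lect2.1* (log2 fold change 3.82 ± 0.37), *mmp9* (log2 fold change 3.71 ± 0.39), *lcp1* (log2 fold change 1.22 ± 0.16) and lysozyme, *lyz* (log2 fold change 4.69 ± 0.63). Of 22 tested erythrocyte genes 3 rose and 5 fell (36.4% called), a split that turned to 7 higher and 5 lower with RLE size factors or DESeq2. *alas2*, the first enzyme of heme synthesis in red cells, had 60.3, 75.4 and 67 CPM in 8 dph females, against 132, 210.1 and 185 CPM in 0 dph females (log2 fold change -1.38 ± 0.2, adjusted p = 1.56e-06) and *blvrb* fell (log2 fold change -1.1 ± 0.12), while *tmod4* (log2 fold change 1.79 ± 0.18), also a gene of skeletal muscle, and *rhd* (log2 fold change 2.52 ± 0.51) rose.

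Of 25 tested myelin genes 14 rose and 4 fell. That was 72% called, against 45.8% of all genes (23% higher and 22.8% lower). *mpz*, a main myelin protein, had 73.6, 67.7 and 72.1 CPM in 8 dph females, against 2.32, 2.85 and 2.93 CPM in 0 dph females (log2 fold change 4.72 ± 0.24, adjusted p = 1.87e-15), with *plp1b* (log2 fold change 4.47 ± 0.24) and *mbpa* (log2 fold change 3.75 ± 0.26) also higher. Of 55 tested photoreceptor genes 39 rose and 3 fell (76.4% called). Their summed level was 4650, 5083 and 4457 CPM in 8 dph females, against 1504, 2285 and 2508 CPM in 0 dph females. *guca1a*, a calcium sensor of phototransduction, had 38.5, 40.5 and 33.8 CPM in 8 dph females, against 2.13, 2.39 and 3.07 CPM in 0 dph females (log2 fold change 3.89 ± 0.29, adjusted p = 5.65e-12), and *rom1b* (log2 fold change 4.3 ± 0.36), *sagb* (log2 fold change 4.54 ± 0.49), *grk1b* (log2 fold change 4.39 ± 0.59) and *impg1b* (log2 fold change 1.62 ± 0.18) were higher as well. In the first 0 dph female *sagb* was at 0.671 CPM, against 3.58 and 3.97 CPM in the other 0 dph females. Of 46 listed feeding signals 21 were tested, of which 12 rose and 1 fell (61.9% called). Their summed level overlapped, at 186.4, 184.5 and 184 CPM in 8 dph females, against 182, 197 and 220.3 CPM in 0 dph females. *npy*, which stimulates appetite, had 5.72, 5.22 and 7.68 CPM in 8 dph females, against 1.77, 2.2 and 2.02 CPM in 0 dph females (log2 fold change 1.64 ± 0.28, adjusted p = 2.38e-05), and *pmchl*, a melanin-concentrating hormone gene, rose (log2 fold change 3.33 ± 0.54). *ghrl*, the gut hormone ghrelin, had 93 reads over the 8 dph females and 3 reads over the 0 dph females, a ratio of 47.2 (exact 95% counting interval 15.7 to 233). The faller was *nucb2a* (log2 fold change -0.99 ± 0.16), the precursor of nesfatin.

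Proliferation genes were called almost only as lower. Of 84 tested cell cycle and DNA replication genes 52 fell and 1 rose (63.1% called, against 45.8% of all genes). Their median log2 fold change was -0.49, and their summed level was 2084, 1695 and 1869 CPM in 8 dph females, against 2370, 2689 and 2682 CPM in 0 dph females. The count lower was 38 with RLE size factors or DESeq2, and 33 to 53 when single fish were left out, lowest without the second 8 dph female. *cdk4*, the kinase of the G1 phase, had 20.52, 18.4 and 20.4 CPM in 8 dph females, against 37.7, 38 and 41.2 CPM in 0 dph females (log2 fold change -0.98 ± 0.11, adjusted p = 2.05e-08). *cdk2* (log2 fold change -1.17 ± 0.18), *cdc20* (log2 fold change -1.12 ± 0.17), which acts at mitotic exit, and *rpa2* (log2 fold change -0.95 ± 0.13), a single-strand DNA binding protein, fell likewise. Of 79 cytosolic ribosomal protein genes 22 fell (27.8%, against 22.8% of all genes) and none rose, with a median of -0.22. *rps18* (log2 fold change -0.54 ± 0.12) and *rpl7a* (log2 fold change -0.39 ± 0.1) were among them. That count depended on scaling and on single fish, at 10 with RLE size factors, 12 with DESeq2, 10 without the second 8 dph female or the first 0 dph female, and 12 without the first 8 dph female.

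**Figure D4:**
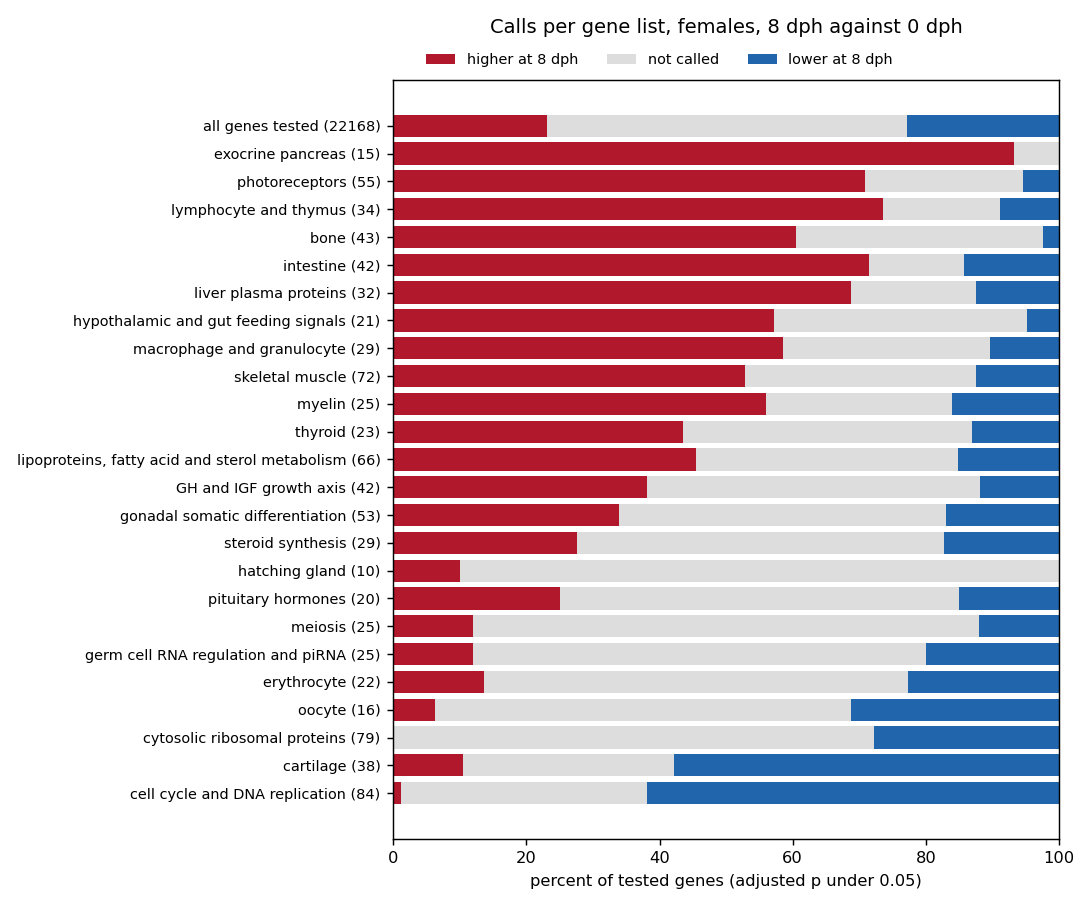
Share of tested genes (x axis, percent) called higher at 8 dph (red), not called (grey) and lower at 8 dph (blue) for all genes and for 24 gene lists, with the number of tested genes in brackets. Pancreas (14 of 15) and lymphocyte genes (25 of 34) were mostly red, cell cycle (52 of 84) and cartilage genes (22 of 38) mostly blue, and the germ cell and meiosis lists mostly grey.

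Over all genes, more calls separated 4 dph from 0 dph females than 8 dph from 4 dph females. The comparison of 4 dph with 0 dph females called 7400 genes (33.4%), and that of 8 dph with 4 dph females 1194 genes (5.39%). In 4 dph females the pancreatic list already summed to 3965, 2993 and 6009 CPM. *ddx4*, *ghrb* and *pck1* were among the members with a call in the second step, with log2 fold changes from 4 to 8 dph of 2.24, 1.57 and -3.11.

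Males changed much as females did over the same 8 days. In the male larvae, which share no fish with the females, 10551 genes (47.6%) were called between 8 and 0 dph. Of the genes called, 8578 were called in both sexes in the same direction, which is 84.4% of the female calls and 81.3% of the male calls, and 2 genes were called in opposite directions. Across genes the log2 fold changes of the sexes had a Pearson correlation of 0.887, a description over genes that are not independent replicates. Same-numbered females and males deviated together from their group means at 0 dph (correlations of 0.487, 0.277 and 0.245), and less so at 8 dph (0.144, 0.074 and 0.08). Differently numbered pairs at 0 dph had correlations of -0.325 to 0.146. The labels do not say whether same-numbered fish were related, so the sexes may not have been independent samples at 0 dph, which was not tested. A test of whether the change from 0 to 8 dph differed between the sexes called 1 gene (0.00451%), and 2 with DESeq2. In the main fit 601 of 22168 genes had an unadjusted p under 0.05. That is a smaller share than the 0.05 expected if no gene differed. Genes that did not pass the test are not thereby shown to change alike in both sexes. With same-numbered fish of 1 age as a block, an alternative chosen after seeing the data, the test called 0 genes, with 646 at an unadjusted p under 0.05.

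That gene was LOC120809390, which has no symbol in the annotation used. It had 13.1, 14.2 and 19.3 CPM in 8 dph females, against 0.762, 1.46 and 1.82 CPM in 0 dph females (log2 fold change 3.53 ± 0.51, adjusted p = 2.11e-06). In males it had 0.153, 0.292 and 0 CPM at 8 dph, against 0.0589, 1.06 and 0.971 CPM at 0 dph. The change in females exceeded that in males by 5.83 ± 0.85 on the log2 scale (adjusted p = 0.00271), and by 5.64 with the block within each age (adjusted p = 0.0749). All 3 of the 8 dph females lay above the 0 dph range, while the male ages overlapped. The second gene called in opposite directions, LOC120825656, had 5.21, 8.13 and 7.57 CPM in 8 dph females, against 3.9, 0.655 and 0.741 CPM in 0 dph females, where the ages did not overlap, but its difference between the sexes did not pass the test (log2 difference 3.57 ± 0.88, adjusted p = 0.702) and its female call was lost without the second (adjusted p = 0.0515) or the third 0 dph female (adjusted p = 0.0536).

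For the germ cell and gonad genes the sexes were set side by side. *ddx4* had 0.499, 0.548 and 0.501 CPM in 8 dph males and 0.53, 0.628 and 0.288 CPM in 0 dph males, a log2 fold change of 0.11 ± 0.48, adjusted p = 0.868, where females had passed the test. The difference of the changes between females and males was 1.39 ± 0.65, adjusted p = 0.9999, which did not pass the test. *piwil1* had a male log2 fold change of 0.05 ± 0.44, adjusted p = 0.941, and a difference between the sexes of 1.27 ± 0.6, adjusted p = 0.9999. *amhrII* changed by 0.74 ± 0.8, adjusted p = 0.47 in males, with a difference of 1.83 ± 1.07, adjusted p = 0.9999. *gsdf* rose in males too (4.01 ± 0.55, adjusted p = 7.31e-07), as did *gh1* (2.16 ± 0.49, adjusted p = 0.0011) and *ghrb* (2.24 ± 0.18, adjusted p = 5.06e-11). None of the 208 tested germ cell, gonad and growth genes was called for a difference between the sexes in the change from 0 to 8 dph. Over all 22168 tested genes only 1 was called (0.00451%), so this absence does not set these genes apart. The levels of females and males at 8 dph were not tested against each other here. In that direct comparison, the paper reported higher expression in females for *ddx4*, *piwil1*, *amhrII* and *hsd17b1*.

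**Figure D5:**
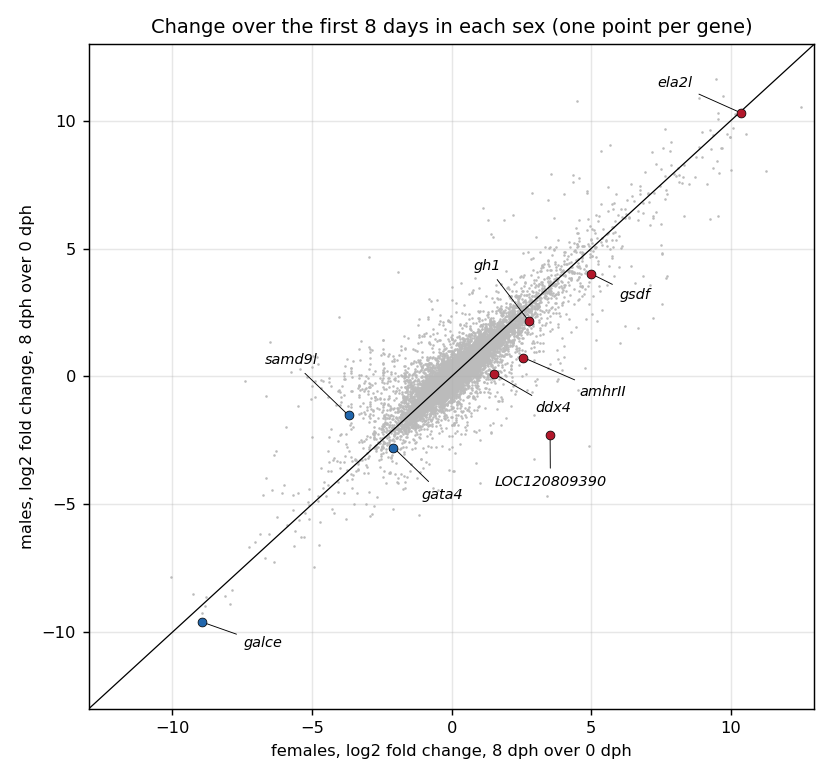
Log2 fold change from 0 to 8 dph in females (x axis) and males (y axis), 1 grey point per tested gene, with the line of equal change and 9 genes marked (red where higher, blue where lower at 8 dph in females). Most genes lay along the line, and LOC120809390 lay at 3.53 in females and -2.30 in males.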

How the data were processed

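Libraries of 36 whole stickleback embryos and larvae were grouped by the sex, stage and replicate number in their labels. The deposited table holds raw counts of reads on each gene. The authors trimmed with Trimmomatic 0.39, aligned with HISAT-3N to the assembly GAculeatus_UGA_version5, and counted uniquely mapped reads strand-specifically with HTSeq 2.0.2 against the NCBI annotation. Genes that share sequence with a near-identical copy may lose reads under that rule. The authors' normalized table was not used.

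Counts were tested with edgeR 4.0.16 (limma 3.58.1, R 4.3.3): TMM scaling, filterByExpr, which kept 22168 of 25258 genes, and a quasi-likelihood fit of 12 groups over 36 samples, so that all groups shared 1 estimate of spread. Contrasts were 8 dph minus 0 dph in females, the same in males, their difference, and the steps through 4 dph. Benjamini-Hochberg adjustment covered the whole table, and an adjusted p under 0.05 was a call. Standard errors came from the log2 fold change and its F statistic. CPM values used the TMM-scaled library sizes and no pseudocount. Where a group had 1 to 3 reads, the ratio of summed reads with an exact 95% counting interval replaced the fitted fold change. Where it had 0 reads, a floor of 3 counts over the group was used, beside the limit of that interval nearer to no change. These intervals and floors cover counting error only. Depth was 13853605 to 32908285 counted reads per female.

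Of 11325 numbered LOC identifiers, 8908 were found in RefSeq's table for the assembly fGasAcu3.hap1.1 and 1743 took a symbol from it, so coordinates and sequences were not used here. Genes named were members of the germ cell, meiosis, oocyte, gonadal somatic, steroid, growth and pituitary lists, the 12 largest rises and falls among called, non-overlapping genes with a symbol and at least 5 CPM in the higher group, up to 5 called members of each other list, and the 10 genes with the smallest adjusted p for the difference between sexes. The comparison, lists and members were chosen with earlier results of these data known. Alternatives were DESeq2 1.42.0 (at least 10 reads over all samples), RLE size factors, no filter beyond 1 read, a fit of only the groups compared, a replicate block, and leaving out each fish. Same-numbered females and males deviated together at 0 dph (correlations of log CPM deviations of 0.487, 0.277 and 0.245), so a block of same-numbered fish within each age was added for the sex difference after seeing the data. The code was tested on simulated data.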

Additional observations from a re-analysis of the deposited data

Results flagged for a closer look

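LOC120809390 was the one gene called for a difference between the sexes in the change from 0 to 8 dph, with a female change larger than the male change by 5.83 (log2). It was no longer called when only the 12 fish compared entered the fit (log2 difference 5.85, adjusted p = 0.692) or when same-numbered fish of 1 age formed a block (log2 difference 5.64, adjusted p = 0.0749), and was called in each of the other alternatives, with adjusted p from 2.35e-09 (DESeq2) to 0.0387 (without the second 0 dph male). Groups of 3 fish were not tested for single outlying samples.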

How the results depend on the processing

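The number of genes called between 8 dph and 0 dph females stayed between 8447 and 10385 under 11 alternatives, and within 1.5 times the main count in each direction, although RLE size factors and DESeq2 shifted the median log2 fold change to 0.07 and the share of calls that were higher to 57.9% and 58.1%, against 50.3% with TMM. In the fit with the replicate number as a block 10136 genes were called, and same-numbered females of the 2 ages did not deviate together (correlations of -0.048, -0.039 and 0.012), so across ages the numbers name samples only, and the block ended no call among the genes named. The 1 call for a difference between sexes became 2 with DESeq2, 0 with only the groups compared (656 genes at an unadjusted p under 0.05), 1 with the replicate block, 0 with the replicate block within each age, and 1 to 4 when single fish were left out. Of 528 list counts under the alternatives, 474 were within 1.5 times the main count. Besides those given in the text and counts of 5 or fewer, the exceptions were steroid synthesis genes that rose (5, against 8, without the third 8 dph female or any 1 of the 0 dph females), thyroid genes that rose (6, against 10, without the third 0 dph female), intestine genes that fell (3, against 6, without the third 0 dph female) and lipid genes that fell (6, against 10, without the first 8 dph female). Of 155 named genes called, 135 were called under every alternative that tested them. No named gene changed sign, and the cause of lost calls was not tested. Some germ line genes, such as *tdrd1* with 4 to 17 reads per female, rest on few reads.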
